A study of Mus musculus with 10 samples.

Results

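The Fc gamma receptors are the cell-surface proteins through which leukocytes bind the constant part of IgG. The genes described here are the mouse activating receptors Fcgr1, Fcgr3 and Fcgr4, the signalling chain Fcer1g that these receptors share, the inhibitory receptor Fcgr2b, and Fcgrt, which encodes the heavy chain of the neonatal Fc receptor. They were chosen by name and not by a filter on their measured values, although earlier results of these data were known. They are 6 of the 28185 genes in the deposited table. All 6 reached a mean of at least 10 normalized counts over the 10 libraries and so were among the 11549 genes tested.

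RNA was sequenced from cells that an anti-Ly6G antibody on magnetic beads had retained, from male C57Bl/6J mice of 12 to 16 weeks on day 3 of an infarct made by tying off the left coronary artery, so that every group, both blood groups included, came from infarcted animals. MI (3 libraries) and MI+MSC (3 libraries) are cells from the left ventricle below the ligature. Blood (2 libraries) and Blood+MSC (2 libraries) are cells from the circulation. In the +MSC groups the animals had received mesenchymal stromal cells (MSC) from bone marrow of the same mouse strain, given as 3 subcutaneous injections of 1000000 cells each soon after the ligation, while MI and Blood animals received no MSC. Libraries carry the numbers of their labels (MI 13, 19 and 20, MI+MSC 15, 17 and 18, Blood 21 and 22, Blood+MSC 23 and 24). The study's methods name the single animal as the unit of its in vivo work. Which heart and blood libraries shared an animal is not given in the sources used here, and all libraries entered the tests as separate samples.

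Activating Fc gamma receptors of the mouse signal through a partner. They sit in the membrane with a dimer of the common gamma chain, whose ITAM (immunoreceptor tyrosine-based activation motif) is phosphorylated by Src family kinases and then recruits the kinase Syk, which drives phagocytosis, the oxidative burst and degranulation. FcγRI, the product of Fcgr1, binds single IgG molecules with high affinity and is best known from monocytes and macrophages, whereas FcγRIII and FcγRIV bind immune complexes and are found on neutrophils. FcγRIIB bears an ITIM (immunoreceptor tyrosine-based inhibition motif) that recruits the phosphatase SHIP-1 and dampens these signals. The neonatal receptor works inside the cell, where it returns internalised IgG and albumin to the surface.

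Recovered reads on genes ranged from 148594 in MI 13 and 268860 in Blood 21 to 8602711 in Blood+MSC 24, a 57.9-fold range. In MI 13 a single read was worth 8.40 normalized counts, and the 6 genes rested there on 4 (Fcgrt) to 41 reads (Fcgr3), against 14 (Fcgr1) to 220 reads (Fcgr3) in Blood 21. The libraries were not equally rich in neutrophil transcripts. The 11 neutrophil markers summed to 44194 and 51265 normalized counts in the Blood libraries and to 16403 and 23270 in those of Blood+MSC, but only to 2496 to 7916 in MI hearts and 2801 to 13438 in MI+MSC hearts, and Ly6g itself, the gene of the sorting antigen, lay between 4.75 and 26.9 in heart libraries and between 41.2 and 644.5 in blood libraries. None of the 11 neutrophil markers was at 0 in a whole group. The 12 monocyte and macrophage markers summed to 7052 and 8175 in Blood libraries, 5841 and 7415 in Blood+MSC libraries, 3143 to 8596 in MI libraries and 5979 to 12240 in MI+MSC libraries, again with no marker at 0 in a whole group. In bulk RNA, fewer cells that carry a transcript and less of it per cell cannot be told apart.

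Positions and sequences of the 6 genes are given first (GRCm39, counted from 1). Fcgr2b lies at chr1:170786186-170804177, Fcgr4 at chr1:170846466-170857330, Fcgr3 at chr1:170878738-170893549 and Fcer1g at chr1:171057141-171062219, all on the minus strand except Fcgr4. Fcgr1 lies at chr3:96190225-96201338 and Fcgrt at chr7:44742412-44756819, both on the minus strand. Fcgr2b and Fcgr3 are close relatives, and their extracellular IgG-binding parts are much alike. Their longest identical coding stretch, 129 bases across the border of exons 3 and 4, is shown because a read that falls wholly inside it fits both genes. In Fcgr2b it is encoded at chr1:170795549-170795650 and chr1:170794243-170794269, and in Fcgr3 at chr1:170885260-170885361 and chr1:170881736-170881762.
Fcgr2b and Fcgr3, exons 3 and 4: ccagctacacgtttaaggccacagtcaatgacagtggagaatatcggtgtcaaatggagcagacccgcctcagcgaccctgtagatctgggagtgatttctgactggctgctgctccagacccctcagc

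Of the 50-base windows of the canonical Fcgr3 transcript, 11.1% also occurred in Fcgr2b, and of its 150-base windows 0% did. Of the 150-base windows of Fcgr2b, 5.04% occurred in transcripts of other genes. Levels of Fcgr2b and Fcgr3 are therefore less certain than those of Fcgr1, Fcgr4, Fcer1g and Fcgrt, for which 0% of the 50-base windows occurred in any other gene. Fcgr2b also shares 355 exonic bases with Gm38204, a non-coding gene on the opposite strand, although counting was strand-specific.

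The opposite signs of the 2 kinds of receptor are written in short stretches of coding sequence. The capitals mark tyrosine codons, in Fcer1g the pair within the ITAM (exons 4 and 5, chr1:171057636-171057641 and chr1:171057458-171057496) and in Fcgr2b the one within the ITIM (exon 7, chr1:170788640-170788657).
Fcer1g, ITAM: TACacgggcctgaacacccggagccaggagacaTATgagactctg
Fcgr2b, ITIM: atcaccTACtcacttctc

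The upstream sequences of Fcgr1 and Fcgr4 are shown because these activating receptors stood on opposite sides of the heart and blood comparison below. They come from the RefSeq promoter table, made on GRCm38.p6, in which all 6 genes had an entry, and were placed on GRCm39 by their single exact match. Searched on both strands over the 250 bases before the RefSeq start were GAGGAA (a core of sites for PU.1, a myeloid transcription factor), TTCNNNGAA (the GAS element, bound by STAT factors) and the ISRE core (GAAA, 2 bases of any kind and GAAA again, bound by interferon-regulatory factors), and capitals mark the matches, which do not overlap each other. The sequences run from 250 bases upstream to the last matching base, at chr3:96201335-96201535 (minus strand) for Fcgr1 and chr1:170846245-170846478 (plus strand) for Fcgr4.
Fcgr1: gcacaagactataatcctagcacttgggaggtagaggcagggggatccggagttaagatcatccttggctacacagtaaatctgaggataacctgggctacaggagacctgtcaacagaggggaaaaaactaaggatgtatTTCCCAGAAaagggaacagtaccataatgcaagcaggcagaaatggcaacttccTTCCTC
Fcgr4: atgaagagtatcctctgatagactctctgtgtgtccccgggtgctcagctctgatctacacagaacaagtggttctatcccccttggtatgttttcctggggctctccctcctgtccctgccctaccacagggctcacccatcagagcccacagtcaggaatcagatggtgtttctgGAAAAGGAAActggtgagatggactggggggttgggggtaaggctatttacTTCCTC

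Fcgr1 had a GAS match starting 109 bases and a PU.1 match starting 55 bases before its start. Fcgr4 had an ISRE match at 73 bases and a PU.1 match at 22 bases, and Fcgr3 had a PU.1 match at 6 or 15 bases, depending on which of its 2 RefSeq starts is used. The windows of Fcer1g, Fcgr2b and Fcgrt held none of these letters. The RefSeq starts are not the outer ends of the gene spans given above. The windows of Fcgr3, Fcer1g, Fcgr2b and Fcgrt lie wholly inside those spans. The printed sequences of Fcgr1 and Fcgr4 end inside them, and the PU.1 match of Fcgr4 lies wholly inside. Among all 32851 promoter windows, 23.25% held the PU.1 letters, 7.02% the GAS letters and 2.98% the ISRE letters, so a PU.1 match is common and these matches are descriptions of sequence only.

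Fcgr1 was the activating receptor with more transcript in the heart than in blood. The MI libraries 13, 19 and 20 gave 243.7, 382.6 and 327.9 normalized counts (318 ± 69.9, SD, n = 3) and the MI+MSC libraries 15, 17 and 18 gave 323.1, 126.3 and 292.9 (247 ± 106, n = 3). The Blood libraries 21 and 22 gave 98.9 and 76.0 (87.5 ± 16.2, n = 2) and the Blood+MSC libraries 23 and 24 gave 25.7 and 69.8 (47.8 ± 31.2, n = 2), and the same order of libraries, n and SD is kept for the other genes. Every heart library lay above every blood library, with the lowest heart value in MI+MSC 17 and the highest blood value in Blood 21. For this gene and those below, the share of all genes with heart and blood apart in this way was not counted. Differences between the tissues were common, with 5374 of the 11549 genes at an unadjusted limma p under 0.05 in MI versus Blood. The order of group means was MI, MI+MSC, Blood and Blood+MSC. MI overlapped MI+MSC, while Blood+MSC lay below Blood with 2 libraries in each.

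Fcgr3, the low-affinity receptor for immune complexes, ran the other way. The Blood libraries held 1554 and 1506 normalized counts (1530 ± 34.2), the Blood+MSC libraries 1020 and 844.1 (932 ± 125), the MI libraries 344.6, 876.6 and 849.2 (690 ± 300) and the MI+MSC libraries 1045, 948.2 and 794.5 (929 ± 126). Blood stood above all other groups, and Blood+MSC, MI+MSC and MI overlapped one another. MI 13, the shallowest library, held the lowest value.

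Fcgr4, which binds IgG2 complexes and is typical of neutrophils and monocytes, followed Fcgr3. Blood libraries reached 487.5 and 499.6 normalized counts (494 ± 8.57), Blood+MSC libraries 329.4 and 328.6 (329 ± 0.557), MI+MSC libraries 285.2, 344.4 and 231.9 (287 ± 56.3) and MI libraries 126.1, 264.3 and 222.9 (204 ± 71.0). Blood was again highest without overlap. Blood+MSC lay above all MI libraries but within the range of MI+MSC.

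Fcer1g, the common chain that these receptors need at the surface, reached 1272 and 1216 normalized counts in blood without MSC (1244 ± 39.7), and 726.8 and 707.9 with MSC (717 ± 13.4). In the heart it had 786.1, 615.3 and 635.2 with MSC (679 ± 93.4) and 176.5, 634.4 and 564.6 without (459 ± 247). Its order was that of Fcgr3 and Fcgr4, with Blood on top, Blood+MSC within the range of MI+MSC and MI lowest. MI 13 lay far below MI 19 and MI 20 for this gene.

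Fcgr2b, the inhibitory receptor, was the most even of the 6. Heart libraries gave 243.7, 381.6 and 451.4 normalized counts without MSC (359 ± 106) and 441.4, 289.3 and 460.3 with MSC (397 ± 93.8). Blood libraries gave 395.7 and 317.1 without MSC (356 ± 55.6) and 329.1 and 380.1 with MSC (355 ± 36.0). All 4 groups overlapped, and the group means could not be put in an order beyond their spread.

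Fcgrt, the IgG-recycling receptor, was low in the heart. The MI libraries had 33.6, 84.6 and 95.7 normalized counts (71.3 ± 33.1) and the MI+MSC libraries 47.3, 52.8 and 82.7 (60.9 ± 19.05). The Blood libraries had 254.4 and 219.6 (237 ± 24.6), and those of Blood+MSC 216.4 and 173.6 (195 ± 30.3). Every blood library lay above every heart library. Blood and Blood+MSC lay close together without overlap, and MI and MI+MSC overlapped.

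**Figure D1:**
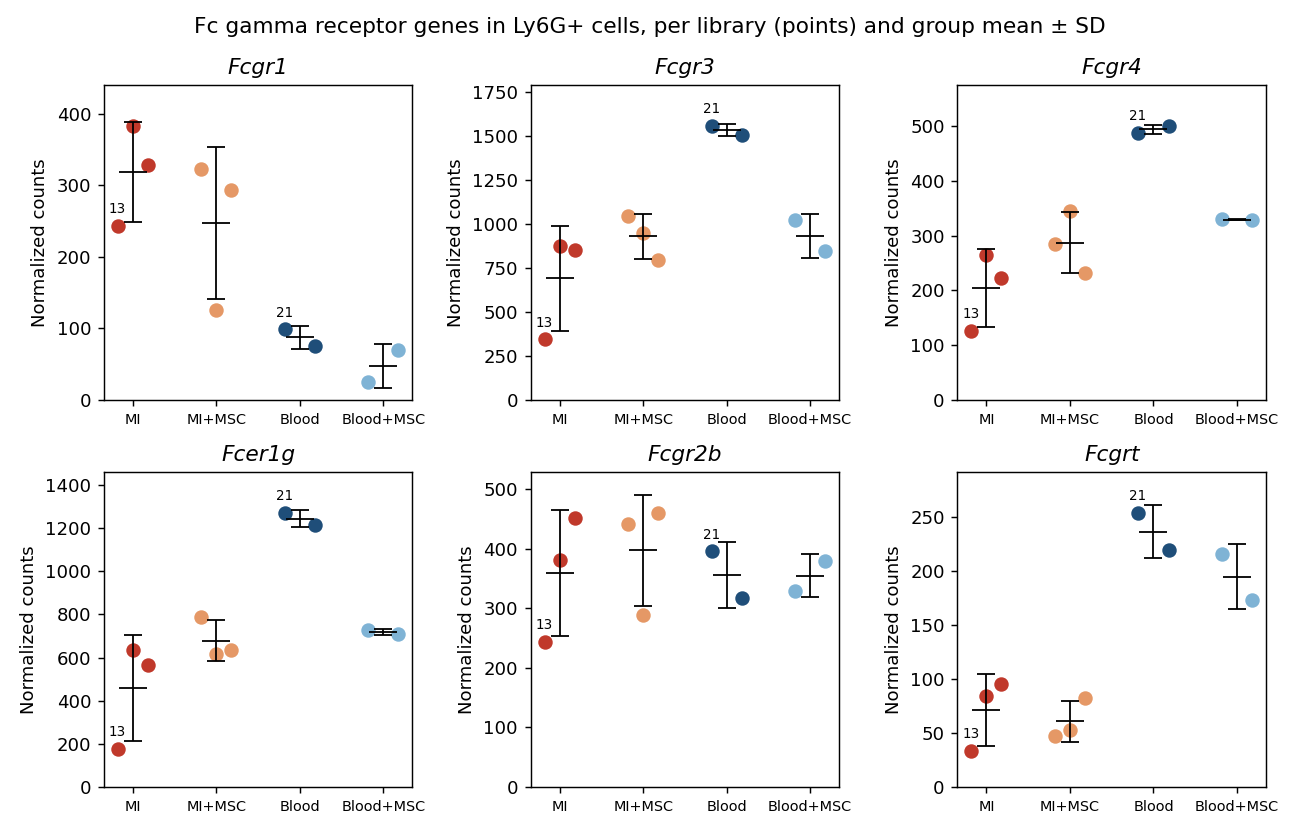
Normalized counts (y axis, from 0) of the 6 genes in each library, by group (x axis). Points are libraries, bars are the group mean ± SD, and the numbers 13 and 21 mark the shallowest libraries; Fcgr1 is higher and Fcgrt lower in all 6 heart libraries than in all 4 blood libraries, Blood is highest for Fcgr3, Fcgr4 and Fcer1g, and the groups overlap for Fcgr2b.

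Levels can be set between genes only per length. Per kilobase of the canonical transcript, Blood held 1297 normalized counts of Fcer1g, 990 of Fcgr3, 386 of Fcgr4, 105 of Fcgr2b, 80.8 of Fcgrt and 33.1 of Fcgr1. In MI the means per kilobase were 478 for Fcer1g, 447 for Fcgr3, 160 for Fcgr4, 120 for Fcgr1, 105 for Fcgr2b and 24.3 for Fcgrt. Fcgr1 thus went from the last place in Blood to a level within the spread of Fcgr2b in MI (SD 26.5 and 31.1 per kilobase). This holds for the canonical lengths. Per kilobase of all exons Fcgr1 was also last in Blood (25.1), but in MI it had 91.1 against 61.3 for Fcgr2b. There Fcgr1 lay above Fcgr2b in each library (69.8 against 41.6 in MI 13, 109.6 against 65.2 in MI 19, 93.9 against 77.1 in MI 20).

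The comparison of MI with Blood asked how the cells retained from the infarct differed from those retained from the circulation without MSC. By limma on log2(normalized count + 2), where a call needed a Benjamini-Hochberg adjusted p under 0.05 over all 11549 genes and a log2 fold change of at least 0.5 in size, 1 of the 6 genes was higher and 4 were lower in MI. Over all genes tested 21.2% were called higher and 13.5% lower. Fcgr1 was 3.55-fold higher in MI (log2 fold change 1.83, SE 0.47, 95% interval 0.79 to 2.86, limma adjusted p = 0.0136). Fcgrt was 3.55-fold lower (−1.83, SE 0.42, limma adjusted p = 0.00803) and Fcer1g 3.11-fold lower (−1.64, SE 0.48, limma adjusted p = 0.0236). Fcgr4 was 2.51-fold lower (−1.33, SE 0.34, limma adjusted p = 0.0128) and Fcgr3 2.40-fold lower (−1.26, SE 0.43, limma adjusted p = 0.0411). Fcgr2b had a log2 fold change of −0.03 with an interval of −0.78 to 0.73 (limma adjusted p = 0.958), and its sign turned under library-size scaling (0.49).

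These calls were not equally firm. With Blood 22 left out, 2 of the 6 genes were called (Fcgr4 and Fcgrt), and with Blood 21 left out 3 (Fcgr1, Fcgr4 and Fcgrt), with log2 fold changes of −1.67 and −1.60 for Fcer1g and of −1.29 and −1.24 for Fcgr3. Leaving out MI 13 moved both more, to −1.05 for Fcer1g and −0.82 for Fcgr3, and both were still called. With sample quality weights 0 of the 6 were called, with log2 fold changes of 2.06 for Fcgr1, −1.45 for Fcgrt and −0.84 for Fcgr3. Scaling by library size moved the median log2 fold change of all tested genes from 0.15 to 0.63 and the calls from 2452 higher and 1556 lower to 3778 and 812, and left Fcgr1 and Fcgrt called. Relative to the median, the log2 fold changes were nearly the same under both scalings, at 1.68 and 1.71 for Fcgr1, −1.98 and −1.95 for Fcgrt, −1.78 and −1.75 for Fcer1g, −1.47 and −1.44 for Fcgr4 and −1.41 and −1.38 for Fcgr3. By edgeR with TMM scaling 2044 genes were called higher and 2060 lower, and 5 of the 6 genes were called.

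Of the 12 monocyte and macrophage markers, 3 were called higher in MI than in Blood, Cx3cr1 and Ms4a7 among them, and 0 lower, which for higher calls is near the 21.2% of all genes, and 7 of the 12 had a negative log2 fold change (list median −0.38). Of the 11 neutrophil markers 9 were called lower, against 13.5% of all genes, and 0 higher. Their part in the differences of the Fc receptor genes was not tested. Heart muscle transcripts were carried along in the heart libraries, where 4 cardiomyocyte markers summed to 2273 to 6618 normalized counts without MSC and 885 to 3612 with MSC, against at most 7.62 in blood libraries. The 5 endothelial markers summed to 1370 to 1560 normalized counts in MI and 341 to 665 in MI+MSC libraries. In blood libraries they summed to 593 (Blood 21) and 61.1 (Blood 22) without MSC and 32.0 and 40.7 with MSC. Pecam1 gave 586 of the sum in Blood 21, where Cdh5 stood at 7.07 and Kdr, Tie1 and Emcn at 0. Of these 5 markers, 4 were called higher in MI than in Blood, against 21.2% of all genes, and 0 lower. The part of the heart muscle and endothelial transcripts was not tested either.

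**Figure D2:**
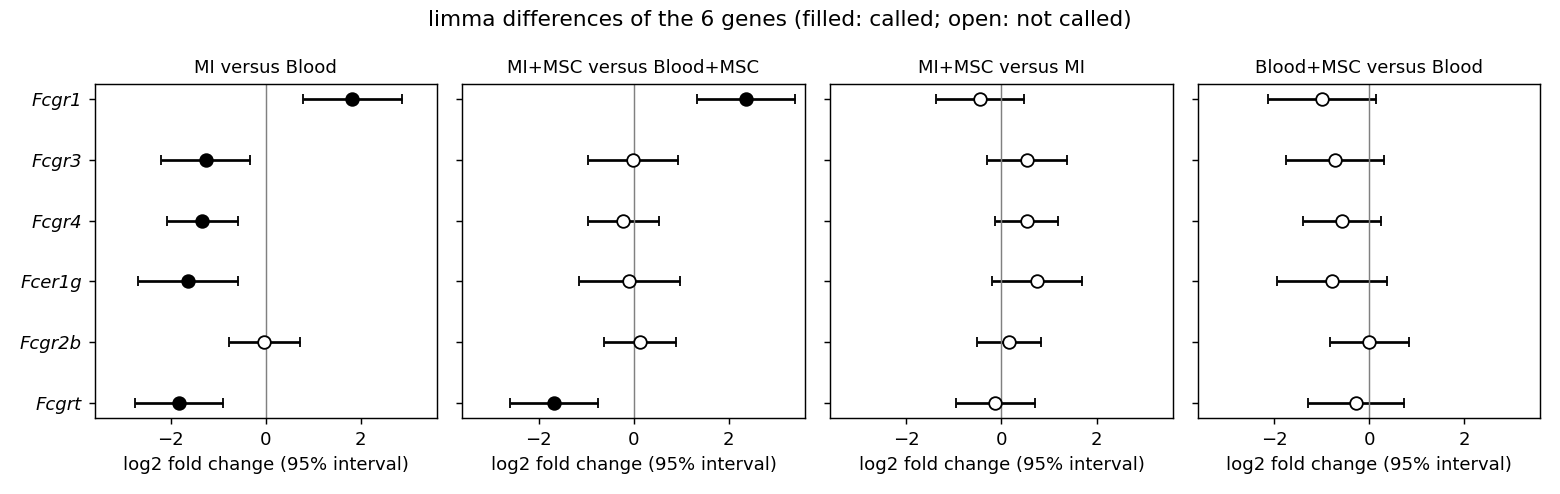
log2 fold changes (x axis) of the 6 genes (y axis) from limma, 1 panel per comparison, with 95% intervals as bars; filled points are called and open points are not. Fcgr1 and Fcgrt are called on opposite sides of 0 in both heart and blood comparisons, Fcgr3, Fcgr4 and Fcer1g are called in MI versus Blood alone, and no point is filled in the MSC comparisons.

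In MI+MSC versus Blood+MSC, which set the same tissues side by side in MSC-injected animals, 1 of the 6 genes was called higher and 1 lower, against 8.23% and 5.85% of all genes tested. Fcgr1 was 5.17-fold higher in the heart (log2 fold change 2.37, SE 0.47, limma adjusted p = 0.00812). Fcgrt was 3.20-fold lower (−1.68, SE 0.42, limma adjusted p = 0.0239). The other 4 were not called, with log2 fold changes of −0.01 for Fcgr3 (95% interval −0.95 to 0.94), −0.09 for Fcer1g (−1.15 to 0.97), −0.21 for Fcgr4 (−0.96 to 0.53) and 0.14 for Fcgr2b (−0.62 to 0.89). With Blood+MSC 23 left out, 0 of the 6 were called, with a log2 fold change of 1.68 for Fcgr1 and −1.52 for Fcgrt. Fcgr1 alone was called with Blood+MSC 24, MI+MSC 15 or MI+MSC 17 left out, where Fcgrt had log2 fold changes of −1.84, −1.52 and −1.60. Here 4 of the 12 macrophage markers, Ms4a7, Cx3cr1 and Cd68 among them, were called higher and Retnlg and Ly6g of the neutrophil markers lower in the heart.

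MI+MSC versus MI asked whether MSC changed the cells in the infarct. None of the 6 genes was called, as for 0% of all genes tested, with 925 genes at an unadjusted p under 0.05, 0 calls by edgeR and 21 higher and 58 lower by DESeq2, none of them Fc receptor genes. The log2 fold changes were 0.76 for Fcer1g (95% interval −0.19 to 1.70), 0.54 for Fcgr3 (−0.31 to 1.38), 0.53 for Fcgr4 (−0.13 to 1.2), 0.16 for Fcgr2b (−0.51 to 0.83), −0.13 for Fcgrt (−0.96 to 0.70) and −0.45 for Fcgr1 (−1.38 to 0.48), with limma adjusted p from 0.652 to 0.913. The groups overlapped for all 6, where 7.05% of all genes were higher and 9.60% lower without overlap. MI 13 decided much of these values. Without it the log2 fold change was 0.17 for Fcer1g, 0.10 for Fcgr3, 0.22 for Fcgr4, −0.09 for Fcgr2b, −0.59 for Fcgrt and −0.63 for Fcgr1, and still 0 of the 6 were called. Without MI+MSC 17 the value of Fcgr1 was −0.02.

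Blood+MSC versus Blood asked the same of the circulating cells. Again 0 of the 6 genes and 0% of all genes were called, with 848 genes at an unadjusted p under 0.05, 0 calls by edgeR and 4 higher and 175 lower by DESeq2, none of them Fc receptor genes. In 5 of the 6 genes both Blood+MSC libraries lay below both Blood libraries, as in 15.4% of all genes tested, and under library-size scaling this held for 3 (Fcgr3, Fcgr4 and Fcer1g). The log2 fold changes were −0.99 for Fcgr1 (95% interval −2.13 to 0.15), −0.79 for Fcer1g (−1.95 to 0.37), −0.72 for Fcgr3 (−1.75 to 0.31), −0.58 for Fcgr4 (−1.40 to 0.23), −0.28 for Fcgrt (−1.30 to 0.73) and −0.00 for Fcgr2b (−0.83 to 0.82), with limma adjusted p from 0.684 to 1. The value of Fcgr1 was −0.30 with Blood+MSC 23 left out and −1.68 with Blood+MSC 24 left out. The 11 neutrophil markers had a median log2 fold change of −1.80 in this comparison with 0 called, and their part was not tested. For Fcer1g, Fcgr3 and Fcgr4 the intervals run from losses past 1 on the log2 scale to slight rises, so that they include a loss of that size as well as none.

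The interaction, the MSC difference in the heart minus that in blood, was called for 0 of the 6 genes and for 0% of all genes, with 838 genes at an unadjusted p under 0.05, 0 calls by edgeR, and 18 calls above and 2 below 0 by DESeq2. It was 1.55 on the log2 scale for Fcer1g (SE 0.68, 95% interval 0.05 to 3.05), 1.26 for Fcgr3 (SE 0.61, −0.08 to 2.59) and 1.12 for Fcgr4 (SE 0.48, 0.06 to 2.17), intervals that carry no correction for the number of genes, and each had a limma adjusted p of 0.630. It was 0.54 for Fcgr1, 0.16 for Fcgr2b and 0.15 for Fcgrt, and the last 2 turned sign under library-size scaling (−0.27 for both). Without MI 13 and Blood 21 together it was 0.93 for Fcer1g, 0.79 for Fcgr3 and 0.82 for Fcgr4. A difference between heart and blood in the response of these genes to MSC was therefore not detected.

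The balance between receptors does not depend on library scaling, since it is taken within a library. Of the summed per-kilobase levels of Fcgr1, Fcgr3, Fcgr4 and Fcgr2b, Fcgr1 made up 14.0% (MI 19), 12.7% (MI 20) and 19% (MI 13) in hearts without MSC and 10.6%, 4.71% and 11.8% in hearts with MSC. In blood it made up 2.43% and 1.93% without MSC and 0.951% and 2.81% with MSC. The heart and blood ranges of this share did not overlap. Fcgr3 was the largest part everywhere, at 45.9% to 60.4% in heart and 58.0% to 65.5% in blood libraries, and Fcgr4 held 17.8% to 26.5% and 24.7% to 27.3%. Fcgr2b held 8.37% to 14.8% in heart and 6.26% to 11.9% in blood libraries. These shares and the ratios below depend on the gene lengths taken. Fcgr3 has 1545 bases in its canonical transcript and 3092 over all exons, and Fcgr2b has 3403 and 5854. Over all exons Fcgr2b held 7.47% to 13.1% in heart and 5.68% to 10.6% in blood libraries. In MI 13 Fcgr3 then had 111 normalized counts per kilobase against 98.6 for Fcgr4.

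The ratio of the summed activating receptors to Fcgr2b was 12.3 and 15 in the Blood libraries, 9.59 and 7.43 in those of Blood+MSC, 5.78, 8.19 and 6.39 in those of MI and 7.88, 10.9 and 5.96 in those of MI+MSC. Blood had the highest ratios, above all 8 other libraries, and the other groups overlapped. Fcer1g relative to the 3 activating receptors was 0.931 and 0.909 in the Blood libraries, 0.817 and 0.890 in those of Blood+MSC, 0.445, 0.720 and 0.694 in those of MI and 0.802, 0.689 and 0.821 in those of MI+MSC. The lowest of these came from MI 13, where 21 reads of Fcer1g stand behind it. These ratios were not tested.

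**Figure D3:**
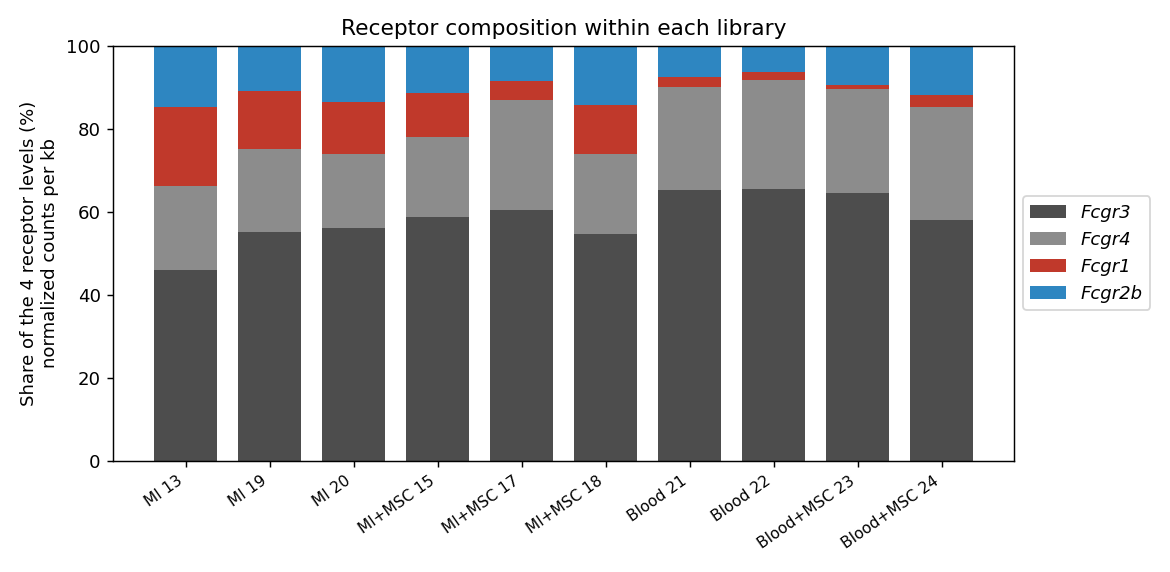
Share (y axis, %) of Fcgr3, Fcgr4, Fcgr1 and Fcgr2b in the sum of their normalized counts per kilobase of canonical transcript, 1 bar per library (x axis). Fcgr1 takes 4.71% to 19% in the 6 heart libraries and 0.951% to 2.81% in the 4 blood libraries.

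Genes that act after the receptors were counted from lists fixed by name. Of the 20 kinases and adaptors of ITAM signalling, 13 were called lower and 1 higher in MI than in Blood, against 13.5% and 21.2% of all genes tested, with a median log2 fold change of −1.44 against 0.15 over all tested genes. The same shares of all genes stand behind the counts of the next lists. Among the lowest were Rac2, the leukocyte GTPase of the oxidase complex (−2.91), the Src family kinases Fgr (−1.98) and Lyn (−1.79), Pik3cd, a PI3 kinase subunit of leukocytes (−1.91), and Card9, an adaptor between Syk and NF-κB (−1.82). Cblb, a ubiquitin ligase that restrains such signalling, was the gene called higher (1.48), and Syk itself was lower (−1.50), named here after its value was seen.

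Of the 14 phagocytosis and oxidase effectors, 10 were called lower and 0 higher in MI than in Blood (median −1.63). They include Rab27a (−2.55), which moves granules to the membrane, the actin regulators Coro1a (−2.50), Dock2 (−1.97) and Arpc2 (−1.65), and Itgb2, the integrin chain CD18 (−1.64). Of the 16 inhibitory phosphatases, adaptors and ITIM receptors, 6 were lower and 1 higher (median −0.54). Those lower were Ceacam1 (−2.46), Ptpn6, which encodes the phosphatase SHP-1 (−2.38), Pirb (−2.12), Pilra (−1.90), Dok3 (−1.77) and Cd300a (−1.31), and the one higher was Inppl1, the gene of SHIP-2 (1.18).

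Other receptors that use the common gamma chain were also counted. Of 9 such receptors 8 were matched by symbol and 6 were tested, of which 4 were called lower and 0 higher in MI than in Blood (median −2.01). Gp6, the collagen receptor of platelets, had the most negative value (−4.38), and its level of 1399 normalized counts in Blood 21 against 28.6 in Blood 22 went with the platelet marker sum of 22722 in Blood 21 and 1024 in Blood 22. With Blood 21 left out its log2 fold change was −1.62 and it was not called. Pira12 (−2.24), Pira2 (−1.79) and Clec4d, a C-type lectin that senses mycobacterial glycolipid (−2.31), were lower as well, and Pira genes are near-identical copies between which reads can be split. Of the 12 other Fc receptors and IgG-handling genes 5 were tested and 0 called. B2m, the light chain that Fcgrt needs, gave 933 to 2932 normalized counts in heart libraries. In blood it gave 9390 in Blood 21, but 2696 in Blood 22 and 1793 and 1575 in Blood+MSC 23 and 24, within the heart range.

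The list calls of MI versus Blood depended on the weights and scaling and in part on single libraries. Of 23 list genes followed through the alternatives, 11 lost the call with sample quality weights and 3 under library-size scaling. Of those named above, the weights took the call from Lyn, Ceacam1, Pilra, Dok3, Cd300a, Clec4d, Pira12 and Pira2. Library-size scaling took it from Ceacam1 and Cd300a. Syk, Cblb and Inppl1 were not followed. Among the genes named above, with Blood 22 left out, Ceacam1, Pilra, Cd300a, Clec4d and Dock2 were not called, and with Blood 21 left out, Ceacam1, Cd300a, Gp6 and Clec4d were not called.

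Transcripts of the IgG heavy chains were nearly lacking in the retained cells, which says nothing about IgG protein. Of 8 immunoglobulin heavy chain genes 7 were matched and 2 tested, and Ighm, the IgM heavy chain, was called lower in MI (−2.64). With sample quality weights Ighm was not called (−1.85). The 4 IgG genes Ighg1, Ighg2b, Ighg2c and Ighg3 stood at 0 in both Blood libraries and at no more than 16.8 normalized counts in any library, which is 2 reads in MI 13.

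In MI+MSC versus Blood+MSC, where 5.85% of all genes were called lower and 8.23% higher, 0 genes of these lists were called higher. Those lower were 8 of the 20 ITAM genes (the 6 lowest being Card9, Btk, Rac2, Pik3cd, Fgr and Plcg2, from −1.89 to −1.56), 3 of the 14 effectors (Dock2 at −2.67, Itgb2 at −1.61 and Ncf4 at −1.53), Ptpn6 of the inhibitory genes (−2.61) and Pira12 of the gamma-chain partners (−1.67). The list medians were −0.95, −0.82, −0.08 and −0.87 in that order, against 0.09 over all tested genes. Of these 11 named genes, 0 were called with Blood+MSC 23 left out and 2 (Pik3cd and Ptpn6) with Blood+MSC 24 left out. In MI+MSC versus MI, in Blood+MSC versus Blood and in the interaction limma called 0 genes of these lists.

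**Figure D4:**
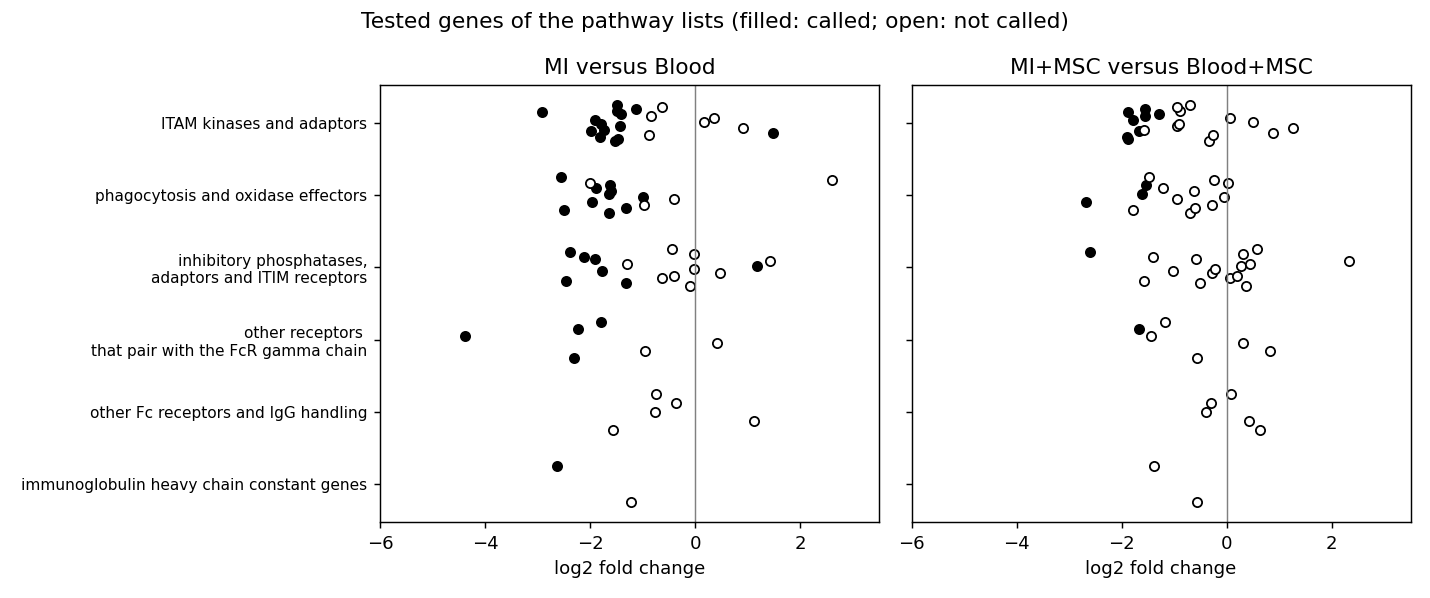
log2 fold changes (x axis) of each tested gene in the 6 lists (y axis) for MI versus Blood and MI+MSC versus Blood+MSC; filled points are called by limma and open points are not. Most ITAM and effector genes lie below 0, with 13 of 20 and 10 of 14 called lower in the left panel and 8 and 3 in the right.

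The genes whose levels ran most like each receptor over the 10 libraries are given by Pearson's r of log2(normalized count + 2), as a description in which all points share the tissue groups and the depth differences. Fcer1g, Fcgr3 and Fcgr4 ran with one another, at r = 0.99 for Fcer1g and Fcgr3, 0.95 for Fcgr3 and Fcgr4 and 0.94 for Fcer1g and Fcgr4. The 3 genes most like Fcgr3 were Pkm (0.99), Cdc42 (0.99) and Fcer1g (0.99), and those most like Fcer1g were Cdc42 (0.99), Copz1 (0.99) and Pkm (0.99). Fcgr4 ran closest with Sephs2 (0.99), Rbm43 (0.98) and Itgam, the integrin chain CD11b (0.98).

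Fcgr1 kept other company, with AI506816 (0.98), Zfp518b (0.97) and S1pr1, a receptor for sphingosine-1-phosphate (0.96), and its r with Fcgr3 was −0.38. Fcgr2b ran closest with Lactb2 (0.97), Sec61a1 (0.96) and B4galt5 (0.96). Fcgrt ran closest with Tppp3 (0.99), Nhsl2 (0.97) and Flna (0.97). With any 1 library left out, the r of these 18 pairs stayed between 0.926 and 0.995.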

How the data were processed

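The 6 genes were taken by symbol from a table of 28185 genes in 10 RNA-seq libraries. Per the study's methods, the authors trimmed reads with Trimmomatic, removed duplicates with Picard, aligned with STAR to GRCm39, counted genes by strand with featureCounts, dropped reads of mitochondrial genes and used DESeq2 for normalization. The deposited signal values, called normalized counts here, are read counts that the authors divided by the DESeq2 size factor of the library. The table named as raw equals the normalized one in all 281850 values. All values (100%, within 0.02 reads) were whole multiples of 1 read, which gave recovered reads and depth (148594 to 8602711 reads per library). Duplicate removal can compress high levels, and a gene with few reads has coarse values in shallow libraries.

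Groups came from the labels. limma 3.58.1 (R 4.3.3) with an intensity trend was run on log2(normalized count + 2), with 1 mean per group over all libraries. Tested were 11549 genes whose mean reached 10 normalized counts, and p-values were Benjamini-Hochberg adjusted over all of them. Fold changes on this scale understate the change of low genes. A call needed an adjusted p under 0.05 and a log2 fold change of at least 0.5 in size, or the adjusted p alone for the interaction. Scripts were checked on simulated data. The alternatives were pseudocounts of 1 and 5, a mean minimum of 20 or none, library-size (CPM) and TMM scaling, sample quality weights, edgeR 4.0.16 (quasi-likelihood) and DESeq2 1.42.0 on recovered reads, and each library left out. Leaving out MI 13 and Blood 21 together was chosen after seeing the data. Lengths, exons and overlaps are from GENCODE M39, which held 27906 of the gene identifiers and may differ from the authors' annotation. The Fc receptor genes, gene lists and tests were chosen with earlier results of these data known. Named in the text are the 6 genes, from each list the called genes up to the 6 of largest change, and the 3 genes of highest r with each receptor. A few list genes that this rule names are not reported here.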

Additional observations from a re-analysis of the deposited data

How the results depend on the processing

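Of 600 recomputed fold changes of the 6 genes, 537 kept their direction and side of the threshold, 25 lost the call and 38 changed sign, while of 680 for genes of the lists 624 kept both and 56 lost the call. The sign changes were all of values that were not called. The genes called in MI versus Blood (5) were 2 under library-size scaling, 0 with sample quality weights and between 2 and 5 with 1 library left out, and in MI+MSC versus Blood+MSC (2) between 0 and 2 with 1 library left out. Fcgr3 lost its call in 11 of 20 alternatives, Fcer1g in 4, Fcgr1 and Fcgr4 in 2 each and Fcgrt in 1 in MI versus Blood. In both MSC comparisons and the interaction the count stayed 0 under every alternative run. The cause of these changes was not tested.

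Under library-size scaling the log2 fold change was 0.084 for Fcgr3 and 0.0035 for Fcer1g in MI+MSC versus Blood+MSC, 0.30 for Fcgr2b and 0.0133 for Fcgrt in Blood+MSC versus Blood, 0.49 for Fcgr2b in MI versus Blood, and −0.27 for both Fcgr2b and Fcgrt in the interaction. With DESeq2 it was 0.0317 for Fcgr3 in MI+MSC versus Blood+MSC, 0.0835 for Fcgr2b in MI versus Blood and −0.0658 for Fcgrt in the interaction, and with edgeR 0.0555 for Fcgr2b in Blood+MSC versus Blood, 0.0116 for Fcgr2b in MI versus Blood and −0.17 for Fcgrt in the interaction. TMM scaling gave 0.0424 for Fcgr2b in Blood+MSC versus Blood. Sample quality weights gave 0.0553 for Fcgr3 and 0.0076 for Fcer1g in MI+MSC versus Blood+MSC, 0.14 for Fcgr2b in MI versus Blood and −0.33 for Fcgrt in the interaction. Without MI 13 and Blood 21 together Fcgr2b was −0.0936 in MI+MSC versus MI, 0.16 in Blood+MSC versus Blood, 0.39 in MI versus Blood and −0.25 in the interaction, where Fcgrt was −0.41, and 4 of the 6 genes were called in MI versus Blood.

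With 1 library left out the ranges that crossed 0 were −0.14 to 1.23 for Fcgr1 in the interaction, −0.14 to 0.13 for Fcgr3 in MI+MSC versus Blood+MSC, and for Fcgr2b −0.0936 to 0.37 in MI+MSC versus MI, −0.16 to 0.16 in Blood+MSC versus Blood, −0.21 to 0.23 in MI versus Blood and −0.0915 to 0.38 in the interaction. For Fcgrt they were −0.59 to 0.14 in MI+MSC versus MI and −0.31 to 0.42 in the interaction. Where a group is left with 1 library, it is assumed to vary like the other groups.

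Over all genes, the 951 higher and 676 lower calls of MI+MSC versus Blood+MSC became 1892 and 1801 with edgeR, 2057 and 1296 with DESeq2, 2926 and 2452 with sample quality weights, 227 and 39 without Blood+MSC 23, and 2577 and 2187 without MI 13 and Blood 21. Sample quality weights gave 1250 and 637 in MI versus Blood and 325 and 776 in MI+MSC versus MI. Without Blood 22, Blood+MSC versus Blood had 1113 and 393 calls and the interaction 249 and 846, with 0 of the 6 genes among them. No paired analysis was possible because the groups share no replicate numbers and no label links heart and blood libraries of an animal. Depth limits MI 13 and Blood 21 most, where 1 read is 8.40 and 7.07 normalized counts.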
